A study of Mus musculus with 7 samples.

Results

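The genes of the cytosolic ribosomal proteins were followed through 7 bulk 3′ mRNA libraries of cells sorted from mouse mammary fat pad and from 4T1 tumours, 4T1 being a mouse mammary carcinoma line. The genes were chosen by name: a row had to be listed in both count tables and to carry a symbol made of Rpl or Rps, a number and at most a final a or x, or to be Rplp0, Rplp1, Rplp2 or Rpsa. This gave 72 of the 13236 genes listed in both tables, 43 of the large and 29 of the small ribosomal subunit. Of 76 such names in the longer table, Rpl26, Rpl30, Rpl34 and Rps27 stood there only, with at most 5 counts in any library. Names ending in -ps, which mark pseudogenes, were left out.

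All mice were BALB/c females. The first table held 3 libraries: PDPN+ cells (pCAF) and PDPN- cells (sCAF) of 4T1-luc tumours, both sorted as Ter119- CD45- EpCAM-, and Ter119- CD45- EpCAM- cells of the uninjected fat pad (NMF). The second held 4 libraries of Ter119- CD45- cells from 4T1-GFP tumours, split into GFP+ EpCAM+, GFP+ EpCAM-, GFP- EpCAM+ and GFP- EpCAM-. Tumours followed an injection of 100000 cells into the mammary fat pad and were taken 4 weeks later, from mice 12 weeks old, whereas the NMF mice were 8 weeks old and their tissue was digested with other enzymes. Ter119 marks erythroid cells, CD45 leukocytes, EpCAM epithelial cells and PDPN (podoplanin) a class of fibroblasts. Age, injection and digestion therefore cannot be told apart in any comparison with NMF. Each group was 1 library, so no difference has a replicate check, no p-value is given, and the 95% intervals cover counting error only. Whether cells of several animals were pooled is not stated in the labels.

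A ribosome joins a small subunit, which reads the mRNA, to a large subunit, which forms the peptide bond. Their proteins are made in matched amounts, and surplus copies are degraded. The mRNAs of these proteins begin with a run of pyrimidines, the terminal oligopyrimidine tract, through which the mTOR pathway and Larp1 set their translation. Ribosome content is known to be high in growing and dividing cells, among them those of carcinomas. In mammals most of these genes have left many processed pseudogenes in the genome, copies of the mRNA that share its sequence.

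The start sites of 6 members with uneven counts are shown here because the tract is the sequence feature that this gene class is best known for. Each window runs from 15 bases before to 15 bases after the start that RefSeq annotates on GRCm38.p6, and capitals mark a C followed by at least 6 pyrimidines.
Rps2: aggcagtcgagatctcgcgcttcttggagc
Rps12: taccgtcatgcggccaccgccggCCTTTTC
Rpl7a: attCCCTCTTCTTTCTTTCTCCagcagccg
Rpl39: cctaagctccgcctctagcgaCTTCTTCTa
Rpl38: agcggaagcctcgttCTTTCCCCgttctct
Rpl41: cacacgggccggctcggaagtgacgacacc
These lie at chr17:24720048-24720077 on the plus strand for Rps2, chr10:23787195-23787224 on the minus strand for Rps12, chr2:26910792-26910821 on the plus strand for Rpl7a, chrX:37085208-37085237 on the minus strand for Rpl39, chr11:114668565-114668594 on the plus strand for Rpl38 and chr10:128549154-128549183 on the minus strand for Rpl41. Of these 6, Rps12, Rpl7a, Rpl39 and Rpl38 held such a run, whereas Rps2 and Rpl41 held none in the window. The mark passes over shorter runs, such as cttctt in the Rps2 window. A gene without a mark may therefore still hold a tract.

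RefSeq start sites were matched for 53 of the 72 members. A run of that kind lay in the window of 27 of the 53, or 50.9%, and in that of 16.4% of all 27025 genes with a matched start. Shorter runs, and runs at a start other than the annotated one, are not counted in these shares. The longest run, of 19 bases, was shared by Rpl7a and Rpl27a. In the 300 bases around the start, from 250 before to 50 after, CCGGAAG, the letters bound by GABPA and other ETS factors, stood on either strand in 39.6% of members against 9.93% of all genes. GGGCGG, the letters of SP1, stood in 62.3% against 38.2%, and AAGATGGC, those of YY1, in 7.55% against 3.19%. The E-box CACGTG stood in 9.43% against 8.09%, and TATAAA in 11.3% against 15.7%. The ETS, SP1 and YY1 letters thus stood in a larger share of members than of all genes, those of YY1 in only 4 of 53 members, while the E-box stood at much the same share in both. The 72 genes lay on 18 chromosomes, with 14 of them on chromosome 7.

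Ribosomal protein genes took 10.5% of all counts in pCAF (10.4% to 10.5%), 15.02% in sCAF (14.98% to 15.06%) and 8.25% in NMF (8.20% to 8.30%). In the second table they took 10.2% in GFP+ EpCAM+ (10.2% to 10.3%), 10.6% in GFP+ EpCAM- (10.6% to 10.7%), 14.1% in GFP- EpCAM+ (14.0% to 14.1%) and 8.46% in GFP- EpCAM- (8.42% to 8.51%). sCAF was thus highest and NMF lowest in the first table, and GFP- EpCAM+ highest and GFP- EpCAM- lowest in the second. All these intervals were separate within a table. The tables were made separately, so no ratio was taken between them. The libraries held between 436051 counts, in pCAF, and 2590144, in sCAF.

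**Figure D1:**
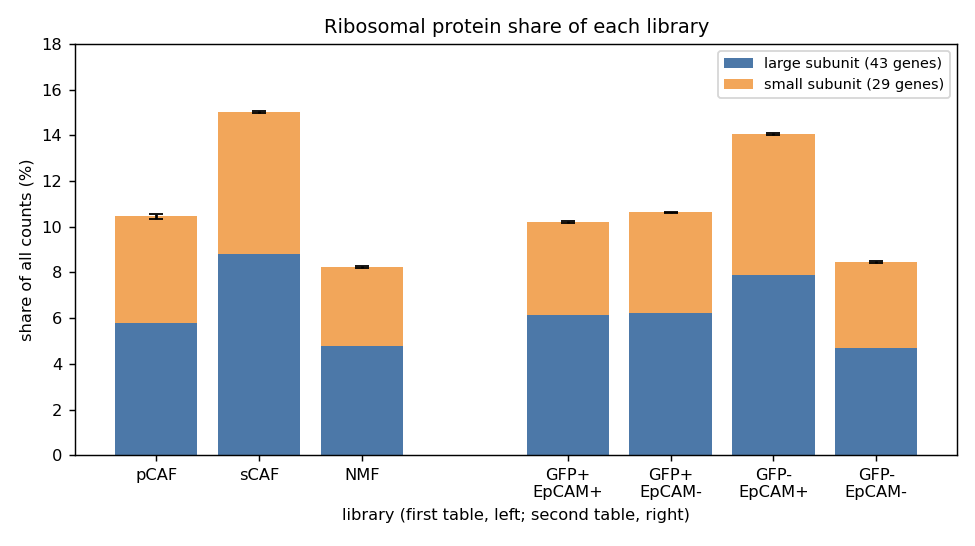
Share of all counts (%) taken by the 43 large and 29 small subunit genes in each library, with the 3 libraries of the first table on the left and the 4 of the second on the right; error bars are 95% counting intervals of the whole share. The sCAF bar reaches 15.02% and the GFP- EpCAM+ bar 14.1%, against 8.25% for NMF and 8.46% for GFP- EpCAM-.

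The libraries also differed in marker RNA, the order of which followed that of the shares only in part. The summed level of 7 epithelial and carcinoma markers was 97.2 normalised CPM (scaled by TMM) in pCAF, 4553 in sCAF and 71.4 in NMF. It was 7527 CPM in GFP+ EpCAM+, 3597 in GFP+ EpCAM-, 11466 in GFP- EpCAM+ and 1218 in GFP- EpCAM-. The summed level of 8 fibroblast markers was 61790 CPM in pCAF, 229 in sCAF and 37168 in NMF, with Lum at 0 counts in sCAF, so sCAF, labelled as fibroblasts, held little fibroblast marker RNA. Pdpn, also at 0 there, was fixed by the sort. Epcam, among the 7 epithelial and carcinoma markers, was sorted on too, and gave 413 of the 11466 CPM in GFP- EpCAM+. So was Ptprc, the CD45 gene, among the leukocyte markers below. Within each table the library with the most epithelial marker RNA had the highest ribosomal protein share, though GFP+ EpCAM+ had more of that RNA than GFP+ EpCAM- and a slightly lower share. The 5 cell cycle genes summed to 112 CPM in pCAF, 638 in sCAF and 4.06 in NMF. The 4 of them listed in the second table summed to 572 CPM in GFP+ EpCAM+, 423 in GFP+ EpCAM-, 420 in GFP- EpCAM+ and 165 in GFP- EpCAM-. GFP- EpCAM+, highest in ribosomal protein share there, was thus not the highest in cell cycle RNA. The 5 endothelial markers summed to 42.4 CPM in pCAF, 364 in sCAF and 1669 in NMF, and to 6110 CPM in GFP- EpCAM- against at most 129.7 in the other libraries of that table. The 4 adipocyte markers summed to 2.49 CPM in pCAF, 75.7 in sCAF and 1937 in NMF, and to 2585 CPM in GFP- EpCAM- against at most 74.05 in the others, nearly all of it Fabp4, which endothelial cells also express. The 5 leukocyte markers summed to at most 42.4 CPM in the first table, and to 483 CPM in GFP- EpCAM- against at most 51.4 in the others of the second. NMF and GFP- EpCAM-, the libraries with the lowest ribosomal protein share of their tables, thus had the most endothelial and adipocyte marker RNA. The part of these marker differences in the ribosomal protein shares was not tested. In bulk libraries fewer cells of a type and less RNA per cell cannot be told apart.

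The split between the subunits lay within a few percentage points. Large subunit genes gave 55.4% of the ribosomal protein counts in pCAF, 58.6% in sCAF and 57.9% in NMF. They gave 60.3% in GFP+ EpCAM+, 58.7% in GFP+ EpCAM-, 56.0% in GFP- EpCAM+ and 55.5% in GFP- EpCAM-. All 72 members had counts in 6 of the libraries and 69 had counts in pCAF, the shallowest. Rpl21, Rpl29 and Rps15a had 0 counts in pCAF, which allows up to 7.48 CPM each. They had 11, 3 and 23 counts in sCAF and 2, 1 and 8 in NMF, so they were close to the floor of 3 counts in more than pCAF.

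Rplp1, a protein of the stalk that recruits elongation factors, had the most counts of all members in every library. It gave 5.61% of the ribosomal protein counts in pCAF, 4.17% in sCAF and 3.98% in NMF. It gave 5.82% in GFP+ EpCAM+, 5.83% in GFP+ EpCAM-, 5.98% in GFP- EpCAM+ and 5.66% in GFP- EpCAM-. Rpl4, Rplp0, Rpsa, Rps10, Rps19 and Rpl8 were among the members that followed it by mean share of counts. Counts of 3′ ends carry no length scaling, and this order is one of counts. The 10 largest members of each library gave between 29.5% of the ribosomal protein counts, in NMF, and 40.9%, in GFP+ EpCAM+.

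The rank order of the 72 members by counts was alike in all libraries. Spearman's rho between 2 libraries of the first table lay between 0.73 and 0.82, between 2 of the second between 0.87 and 0.94, and across the tables between 0.65 and 0.87. These values describe 72 genes that share length, sequence copies and library type, and are no test. Per 10000 ribosomal protein counts, 18 members stood higher in all 3 libraries of the first table than in any of the second, without a ratio being taken across tables. Rps4x, the X-linked small subunit protein, had 70.2 to 139.5 per 10000 in the first table and 11.8 to 14.96 in the second. Rpl10, which joins the large subunit last, had 53.5 to 116 in the first and 5.51 to 12.2 in the second. Another 10 members stood higher throughout the second table, among them Rps3, a protein at the mRNA entry channel, with 124 to 178 per 10000 there and 17.3 to 40.8 in the first. The separate preparation of the tables and the different cells in them cannot be told apart in this split.

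**Figure D2:**
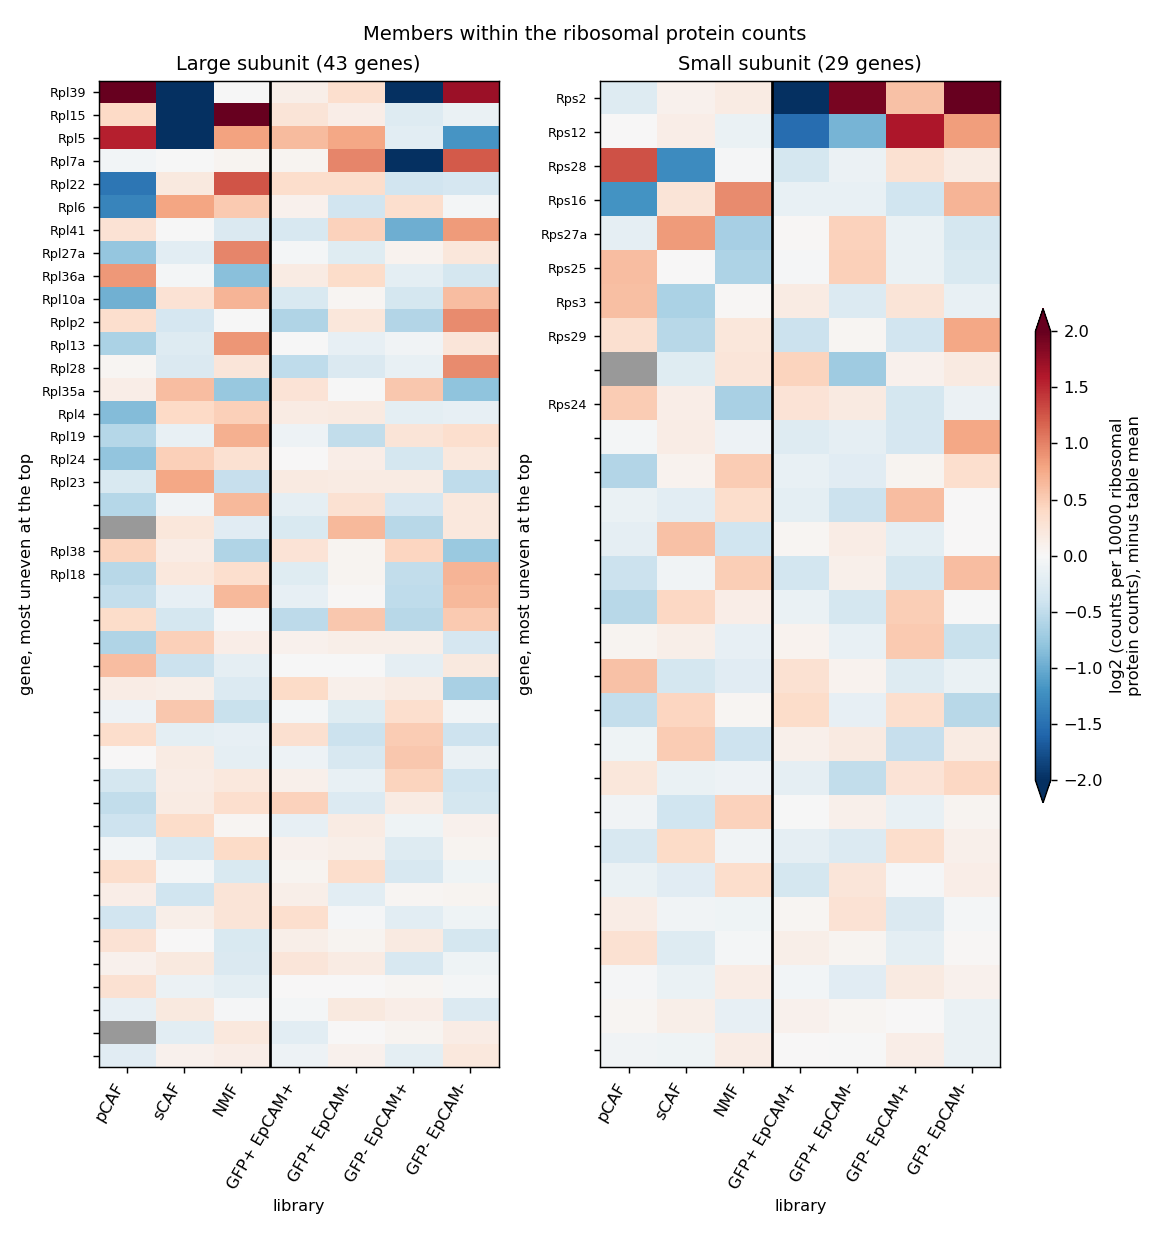
Each member's level within the ribosomal protein counts of a library, as log2 of counts per 10000 ribosomal protein counts minus the gene's mean log2 over the libraries of the same table (3 left of the black line, 4 right of it); grey marks 0 counts. Rows run from the widest fold between libraries of a table at the top to the narrowest, and names are given for members that stood beyond 2-fold of the other members in at least 1 comparison. Most cells are pale, while Rps2, Rps12, Rpl39 and Rpl7a change colour sharply between libraries of a table, and Rpl15 and Rpl5 do so in the first.

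In pCAF against NMF the ribosomal protein share was 1.27 times as large (1.25 to 1.28). On levels scaled by TMM (trimmed mean of M values, within a table), a gene was called when the whole 95% counting interval of its ratio lay beyond 2-fold. Of the 69 members with at least 20 counts over both libraries, 11 were higher and 2 lower in pCAF, where 7.58% and 7.91% of all 8129 genes tested were. The median log2 ratio of the members was 0.44, beside -0.20 for all genes. Among the 234 genes with at least 1000 counts over both libraries it was 0.13, against 0.53 for the 54 members there. Of the 11, 7 were of the large and 4 of the small subunit. The 5 largest were Rpl39, Rpl36a, Rps28, Rps25 and Rps24, and the 2 that were lower were Rpl22 and Rps16.

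Rpl39, a small protein that lines the tunnel through which the new peptide leaves, had 736 counts in pCAF, 126 in sCAF and 217 in NMF. Per 10000 ribosomal protein counts this was 161 in pCAF, 3.24 in sCAF and 22.7 in NMF. The pCAF library was by far the highest and sCAF the lowest. On TMM levels Rpl39 was 10.4-fold higher in pCAF than in NMF (8.94 to 12.2) and 38.6-fold higher in pCAF than in sCAF (32.0 to 47.1). It was 3.71-fold lower in sCAF than in NMF (2.97 to 4.66). The direction of Rpl39 in sCAF was thus opposite to that of most members there, given next.

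In sCAF against NMF the share was 1.82 times as large (1.81 to 1.83). This comparison uses the same NMF library as the one before. Of 70 members tested, 27 were higher and 3 lower in sCAF, where 15.9% and 17.3% of all 9815 genes were. The median log2 ratio was 0.84 for members and 0.17 for all genes, and 63 of the 70 stood above 1. Among the 599 genes with at least 1000 counts over both libraries it was 0.74, against 0.86 for the 63 members there. The 2 medians thus lay close, but the 599 include the 63 members. The minimum adds the counts of both libraries, and sCAF was the deeper, so it favours genes high in sCAF. No conclusion about the members is drawn from this closeness. The middle spread of the members, an interquartile range of 0.87 on the log2 scale, was narrower than the 2.02 of all genes. At that depth it was 0.74 for members and 1.75 for all. The 27 comprised 15 large and 12 small subunit genes. Among them Rps27a, which is made as a fusion with ubiquitin, had 3828 counts in sCAF and 331 in NMF and was 5.37-fold higher (4.80 to 6.02). Rpl23, which can bind Mdm2, had 12751 counts in sCAF and 1338 in NMF and was 4.42-fold higher (4.18 to 4.68). Rpl35a was 4.92-fold higher (3.86 to 6.35), with 763 counts in sCAF and 72 in NMF.

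The 3 that were lower in sCAF were Rpl39, Rpl15 and Rpl5. Rpl15, a core protein of the large subunit, had 8 counts in pCAF, 9 in sCAF and 56 in NMF. It was 13.4-fold lower in sCAF than in NMF (6.58 to 30.8). Rpl5, which carries a ribosomal RNA into the large subunit and can bind Mdm2, had 16 counts in pCAF, 9 in sCAF and 20 in NMF. It was 4.79-fold lower in sCAF than in NMF (2.08 to 11.9). Both rest on few counts, and both genes stood far below the median member, which had 647 counts in pCAF, 5564.5 in sCAF and 1315 in NMF. Rpl11, the partner of Rpl5, had 680 counts in pCAF, 4015 in sCAF and 1557 in NMF and was called in none of these comparisons.

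In pCAF against sCAF the share was 0.696 times as large (0.689 to 0.703). Of 69 members tested, 3 were higher and 12 lower in pCAF, where 11.5% and 11.2% of all 8915 genes were. The median log2 ratio was -0.48 for members and -0.44 for all genes, so on TMM levels the members lay near the median gene. The 3 higher were Rpl39, Rpl5 and Rps28. Rps28, a small subunit protein near the mRNA exit, had 1186 counts in pCAF, 1748 in sCAF and 1009 in NMF, and was 4.49-fold higher in pCAF than in sCAF (4.17 to 4.84). The lowest in pCAF was Rpl6, 5.52-fold lower than in sCAF (4.53 to 6.78), with 103 counts in pCAF and 3759 in sCAF.

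In GFP+ EpCAM+ against GFP+ EpCAM- the share was 0.961 times as large (0.956 to 0.967). Of 70 members tested, 0 were higher and 2 lower, where 0.736% and 0.396% of all 9100 genes were. The 4 comparisons of the second table share libraries in the same way. Members had a median log2 ratio of -0.05, beside 0.01 for all genes. The 2 were Rps2 and Rpl36. Rpl36 had 1380 counts in GFP+ EpCAM+ against 2485 in GFP+ EpCAM-, a 2.15-fold lower level (2.01 to 2.30).

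Rps2, a small subunit protein at the mRNA entry site, had 53 counts in GFP+ EpCAM+, 3920 in GFP+ EpCAM-, 1806 in GFP- EpCAM+ and 2277 in GFP- EpCAM-. Per 10000 ribosomal protein counts it had 2.18, 186, 74.8 and 201 in the same order of libraries. GFP+ EpCAM+ alone was near the bottom, and the other 3 libraries of its table were in the range of typical members. On TMM levels Rps2 was 88.2-fold lower in GFP+ EpCAM+ than in GFP+ EpCAM- (67.3 to 118) and 51.8-fold lower than in GFP- EpCAM+ (39.4 to 69.4). In the first table Rps2 had 371 counts in pCAF, 3994 in sCAF and 1041 in NMF, or 81.4, 103 and 109 per 10000, with no comparable drop. In GFP+ EpCAM+ against GFP+ EpCAM-, 68 of the 70 members tested had a ratio within 2-fold of that of the other members.

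In GFP- EpCAM+ against GFP- EpCAM- the share was 1.66 times as large (1.65 to 1.67). Of 70 members tested, 19 were higher and 2 lower, where 7.33% and 12.7% of all 9518 genes were. Members had a median log2 ratio of 0.62, beside 0.03 for all genes. Among the 508 genes with at least 1000 counts over both libraries it was 0.25, against 0.69 for the 54 members there. Of the 19, 13 were of the large and 6 of the small subunit. Rpl38, needed in mouse embryos for the translation of some Hox mRNAs, had 5684 counts in GFP- EpCAM+ against 1180 in GFP- EpCAM- and was 3.79-fold higher (3.56 to 4.04). Rps26 was 3.27-fold higher (3.10 to 3.44), with 7458 counts in GFP- EpCAM+ against 1798 in GFP- EpCAM-. Rplp0, the base of the stalk, was 2.41-fold higher (2.32 to 2.51), with 10827 counts in GFP- EpCAM+ against 3535 in GFP- EpCAM-.

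The 2 that were lower there were Rpl39 and Rpl7a. Rpl7a, whose introns hold small nucleolar RNAs, had 1246 counts in GFP+ EpCAM+, 2030 in GFP+ EpCAM-, 247 in GFP- EpCAM+ and 1303 in GFP- EpCAM-. It was 6.70-fold lower in GFP- EpCAM+ than in GFP- EpCAM- (5.84 to 7.71). Rpl39 had 220 counts in GFP+ EpCAM+, 220 in GFP+ EpCAM-, 45 in GFP- EpCAM+ and 309 in GFP- EpCAM-. It was 8.72-fold lower in GFP- EpCAM+ than in GFP- EpCAM- (6.36 to 12.2). GFP- EpCAM+, the library with the highest ribosomal protein share of its table, was thus the lowest for both. In the first table Rpl7a was even, with 161, 167 and 174 per 10000 ribosomal protein counts in pCAF, sCAF and NMF.

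In GFP+ EpCAM- against GFP- EpCAM- the share was 1.26 times as large (1.25 to 1.26). Of 70 members tested, 1 was higher and 1 lower, where 5.55% and 14.1% of all 9551 genes were. Their median log2 ratio was 0.22, beside 0.03 for all genes. The one that was higher was Rpl5, with 137 counts in GFP+ EpCAM- against 19 in GFP- EpCAM-, a 4.46-fold higher level (2.75 to 7.63). The one that was lower was Rps12.

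In GFP+ EpCAM+ against GFP- EpCAM+ the share was 0.726 times as large (0.722 to 0.730). Of 71 members tested, 2 were higher and 7 lower, where 0.216% and 4.18% of all 9241 genes were. The median log2 ratio was -0.54 for members and 0.01 for all genes, and 65 of the 71 stood below 1. The 2 higher were Rpl39, 3.22-fold (2.33 to 4.54), and Rpl7a, 3.32-fold (2.90 to 3.82). The 7 lower were Rps2, Rps12, Rps23, Rps28, Rpl17, Rps20 and Rps13, and apart from Rps2 and Rps12 they lay between 2.16-fold and 2.62-fold lower.

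Rps12, a protein of the small subunit head whose Drosophila form acts in cell competition, had 1308 counts in GFP+ EpCAM+, 1710 in GFP+ EpCAM-, 11430 in GFP- EpCAM+ and 3119 in GFP- EpCAM-. Per 10000 ribosomal protein counts it had 53.7, 81.2, 473 and 275 in the same order of libraries. Both GFP+ libraries were low, and GFP- EpCAM+ was the highest, where Rps12 had the second most counts of all members. On TMM levels it was 13.3-fold lower in GFP+ EpCAM+ than in GFP- EpCAM+ (12.5 to 14.1) and 2.95-fold lower in GFP+ EpCAM- than in GFP- EpCAM- (2.78 to 3.13). In the first table it was even, with 219.6, 239 and 199 per 10000 in pCAF, sCAF and NMF. Rps12 alone gave a difference of -0.611 percentage points of all counts, within the -3.85 points of the whole class, for GFP+ EpCAM+ minus GFP- EpCAM+.

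**Figure D3:**
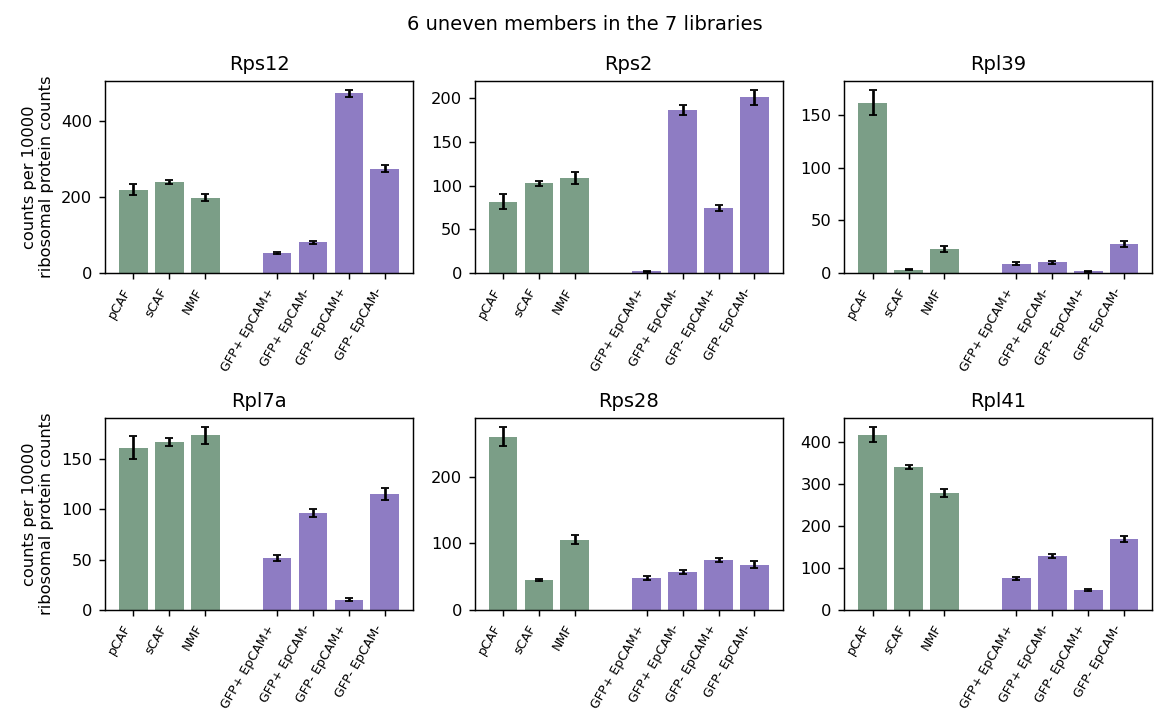
Counts per 10000 ribosomal protein counts of Rps12, Rps2, Rpl39, Rpl7a, Rps28 and Rpl41 in each library (green, first table; purple, second table), with 95% counting intervals; the y axes differ. Rps2 stands at 2.18 in GFP+ EpCAM+, against 186 in GFP+ EpCAM-, and Rpl39 reaches 161 in pCAF, against 22.7 in NMF.

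To separate single genes from the shift of the whole class, each member was also set against the counts of the other members, by the same 2-fold interval rule. In pCAF against NMF 5 members were higher and 8 lower on that scale, where 4.35% and 16.2% of all genes were. The 5 were Rpl39, Rpl36a, Rps28, Rps25 and Rps24. The 8 were Rpl22, Rps16, Rpl6, Rpl27a, Rpl10a, Rpl13, Rpl4 and Rpl19, led by Rpl22, with 11 counts in pCAF and 150 in NMF, 6.50-fold lower (3.53 to 13.3). In sCAF against NMF 3 were higher (Rps27a, Rpl35a and Rpl23) and 6 lower (Rpl15, Rpl5, Rpl39, Rps28, Rpl27a and Rpl13), where 6.39% and 29.3% of all genes were. In pCAF against sCAF 4 were higher (Rpl39, Rpl5, Rps28 and Rps3) and 4 lower (Rpl6, Rps16, Rpl4 and Rpl24), where 13.8% and 6.83% of all genes were. Rpl39 stood 50.7-fold higher in pCAF than in sCAF on this scale (41.9 to 61.7).

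The comparisons of the second table were read in the same way. In GFP+ EpCAM+ against GFP+ EpCAM- 0 members were higher and 1, Rps2, was lower, where 0.758% and 0.308% of all genes were. In GFP- EpCAM+ against GFP- EpCAM- 1 was higher, Rpl38, 2.29-fold (2.15 to 2.44), and 7 were lower, where 2.92% and 22.4% of all genes were. These 7 were Rpl39, Rpl7a, Rpl41, Rplp2, Rps2, Rps29 and Rpl18. Rpl41, the smallest ribosomal protein, had 1817 counts in GFP+ EpCAM+, 2688 in GFP+ EpCAM-, 1139 in GFP- EpCAM+ and 1899 in GFP- EpCAM-, and was 3.60-fold lower in GFP- EpCAM+ than in GFP- EpCAM- relative to the other members (3.34 to 3.88). Rplp2, which encodes a stalk protein as Rplp1 does, was 2.93-fold lower on that scale (2.74 to 3.13). It had 1548 counts in GFP- EpCAM+ against 2100 in GFP- EpCAM-. The mRNA counts of the stalk genes thus did not move together between these libraries. In GFP+ EpCAM- against GFP- EpCAM- 1 was higher (Rpl5) and 3 lower (Rps12, Rpl39 and Rpl28), where 4.06% and 16.0% of all genes were. In GFP+ EpCAM+ against GFP- EpCAM+ 2 were higher (Rpl39 and Rpl7a) and 2 lower (Rps2 and Rps12), where 3.88% and 2.94% of all genes were.

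**Figure D4:**
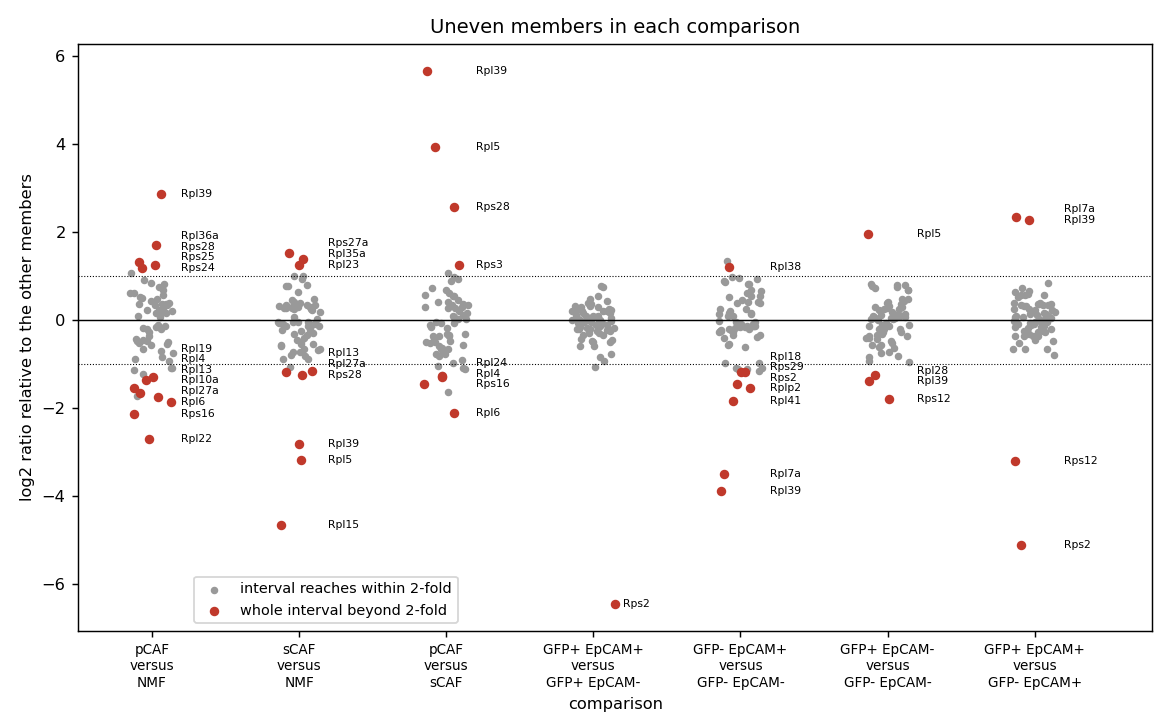
Log2 ratio of each tested member relative to the counts of the other members in the 7 comparisons (grey, the interval reaches within 2-fold; red, the whole interval lies beyond 2-fold; dotted lines, 2-fold). Most members lie between the dotted lines, while Rpl39 lies 50.7-fold up in pCAF versus sCAF and Rps2 87.1-fold down in GFP+ EpCAM+ versus GFP+ EpCAM-.

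Of 19 members known for further roles, 10 stood beyond 2-fold of the other members in at least 1 comparison, as did 29 of all 72. Over the libraries of a table the highest member level per 10000 ribosomal protein counts was a median of 1.79 times the lowest in the first table and 1.63 times in the second. Rpsa, also known as a laminin receptor precursor, had 307, 323 and 267 per 10000 in pCAF, sCAF and NMF and between 283 and 332 in the second table. Rps6, the target of the S6 kinases, had 84 counts in pCAF, 1128 in sCAF and 377 in NMF, and 317, 260, 363 and 207 in GFP+ EpCAM+, GFP+ EpCAM-, GFP- EpCAM+ and GFP- EpCAM-. It was called in no comparison on either scale. Rpl13a, a part of the complex that silences some inflammatory mRNAs, was likewise called in none, with 742 counts in pCAF, 7800 in sCAF and 2002 in NMF. Rps25 and Rpl10a, both linked to translation from internal entry sites, went opposite ways in pCAF relative to the other members: Rps25 was 2.38-fold higher than in NMF (2.07 to 2.74) and Rpl10a 3.14-fold lower (2.61 to 3.81).

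Genes outside the name rule that belong to the same particle were read beside the members. Gnb2l1, which encodes the small subunit protein Rack1, had 843 counts in pCAF, 14351 in sCAF and 2232 in NMF, and was 2.98-fold higher in sCAF than in NMF (2.85 to 3.12). Rps3a1, the expressed mouse gene of another small subunit protein, had 381 counts in pCAF, 8615 in sCAF and 1821 in NMF, and was 2.20-fold higher in sCAF than in NMF (2.09 to 2.31).

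A pair of paralogs, Rpl22l1 and Rps4l, named outside the rule for naming genes, stood apart from the members they resemble. Another paralog, Rpl36al, had 152 counts in pCAF and 128 in NMF, beside 614 and 397 for its member Rpl36a. Rpl36al went with Rpl36a in pCAF against NMF. It was 3.65-fold higher (2.86 to 4.65), beside 4.75-fold for Rpl36a (4.18 to 5.40). Rpl22l1, the paralog of Rpl22, had 206 counts in pCAF, 65 in sCAF and 45 in NMF, and was 14.1-fold higher in pCAF than in NMF (10.1 to 19.9), whereas Rpl22 itself was 4.44-fold lower there (2.41 to 9.09). Rps4l, the paralog of Rps4x, had 0 counts in GFP+ EpCAM+, 1 in GFP+ EpCAM-, 16 in GFP- EpCAM+ and 128 in GFP- EpCAM-. It was 10.2-fold lower in GFP- EpCAM+ than in GFP- EpCAM- (6.02 to 18.3). GFP- EpCAM- was thus the one library of the second table with many Rps4l counts, while Rps4x had 339, 315, 286 and 154 counts in the same order of libraries.

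Lists of related genes gave the surroundings of these values. Of 66 mitochondrial ribosomal protein genes tested in sCAF against NMF, 17 were higher and 0 lower, at a median log2 ratio of 0.91. Of 23 ribosome biogenesis genes tested, 10 were higher and 0 lower, at a median of 1.41, and Npm1, a nucleolar chaperone, was 13.4-fold higher (11.6 to 15.6), with 5593 counts in sCAF and 193 in NMF. Of 20 elongation factors and other mRNAs with a terminal pyrimidine tract, 8 were higher and 0 lower, at a median of 1.10. Npm1 stands in this list as well and is counted in both. The 12 tested regulators of ribosomal protein synthesis, among them Myc and genes of the mTOR pathway, gave 1 higher and 0 lower. All genes had a median of 0.17 in that comparison, with 15.9% higher and 17.3% lower, as given above.

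In pCAF against NMF the same lists gave 4 higher and 1 lower of 62 mitochondrial ribosomal protein genes, 3 and 0 of 18 biogenesis genes, and 3 and 1 of 20 mRNAs with a pyrimidine tract, where 7.58% and 7.91% of all genes were. In GFP- EpCAM+ against GFP- EpCAM- they gave 3 and 0 of 65, 3 and 0 of 22, and 1 and 0 of 20, where 7.33% and 12.7% of all genes were. The mitochondrial ribosomal protein genes were thus called higher in no larger a share than all genes in both comparisons. Their median log2 ratio nevertheless lay above that of all genes. It was 0.39 beside -0.20 in pCAF against NMF, and 0.49 beside 0.03 in GFP- EpCAM+ against GFP- EpCAM-. Npm1 was 3.60-fold higher in that comparison (3.26 to 3.98), with 2220 counts in GFP- EpCAM+ against 486 in GFP- EpCAM-. It was the 1 called of the 20 there, and is also counted among the biogenesis genes. The 2 lists are therefore not separate. In GFP+ EpCAM+ against GFP- EpCAM+ the lists gave 0 higher and 0 lower of 65, of 23 and of 20, where 0.216% and 4.18% of all genes were. The members, with a median of -0.54 there, stood beside medians of -0.26, -0.08 and -0.13 in the 3 lists.

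The counts of a ribosomal protein gene depend on how reads shared with its copies were handled, which was not given. In the GENCODE transcripts, 71 of the 72 members shared at least 1 stretch of 50 bases with another annotated gene, and the median member shared 44.3% of its stretches. In the last 300 bases, where 3′ reads mostly fall, 23 members shared none. Rps12 shared 94.4% of the stretches of that end, Rpl7a 80.5%, Rps2 78.1% and Rpl39 21.1%. Over the whole transcript the genes that shared a stretch were 23 for Rps12, 22 of them pseudogenes, 120 for Rpl7a, 71 for Rps2 and 8 for Rpl39. Among the deposited rows of those other genes, none was listed for Rps12 or Rpl39, Rps2's held at most 11 counts in a library and Rpl7a's at most 3. Across the 72 members, Spearman's rho between the number of genes sharing sequence and the fold between the highest and lowest library was 0.09 in the second table. This describes genes that are not independent of each other. The part of shared sequence in the uneven members was not tested, since the reads were not analysed here.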

How the data were processed

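Expression was measured by 3′ mRNA sequencing of sorted mouse cells. The values are the authors' deposited counts, whole numbers per gene symbol that were not normalized. The submitters' processing notes name bcl2fastq, cutadapt, STAR, HTSeq, DESeq2 and mm10, without settings or roles. Per the labels, read 2 held a molecular identifier, preceded by a barcode in pCAF, sCAF and NMF. The labels do not say whether reads were collapsed by identifier, how strand was handled or where shared reads were counted, so counts may hold amplification duplicates.

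Dates stood in 27 rows of the first table and 21 rows of the second in place of gene names. They held 0.152% to 0.198% of the counts and stayed out of all totals. Totals ran from 436051 to 2590144 counts, and 3 counts, the limit that a count of 0 allows, are 7.48 CPM in pCAF. Groups came from the labels, with 1 library each. Shares have exact 95% Clopper-Pearson intervals. Ratios of genes with at least 20 counts over both libraries were scaled by TMM within a table (edgeR 4.0.16, R 4.3.3), or by the counts of the other members, and given conditional binomial intervals (scipy 1.17.1, Python 3.11.15). The call rule asked for the interval to lie beyond 2-fold, and a library at 0 was set to 3 counts. On simulated counts the rule recovered between 59% and 88% of genes changed 4-fold in the 7 comparisons, each on 8032 to 10035 genes. The simulated counts held counting error only, with no variation between animals, sorts or preparations. The recovery therefore says nothing of how far the calls would repeat in other libraries. Start sites came from RefSeq on GRCm38.p6, and transcripts from GENCODE on GRCm38, the assembly that mm10 names.

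The members and the gene lists were chosen with earlier results of these data known. The genes named are the members at 0 in a library, the 5 highest and 5 lowest per comparison relative to the other members, the 10 with the largest mean share, and members with known further roles. Of each related list up to 3 genes with the most counts are named. Rpl22l1 and Rps4l are named outside this rule. The members printed with their start sites and in the bar plots were chosen after their values were seen. Some genes that this rule names and a wider member set are not reported here. Alternatives were DESeq2 1.42.0 size factors, total counts, TMM factors without the members, other count minimums, a 1.5-fold rule, and other member sets.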

Additional observations from a re-analysis of the deposited data

Results flagged for a closer look

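The ribosomal protein share differed in direction between the EpCAM contrasts. It was 0.961 times as large in GFP+ EpCAM+ as in GFP+ EpCAM-, and 1.66 times as large in GFP- EpCAM+ as in GFP- EpCAM-. The first of these is a small difference, -0.411 percentage points of all counts. Rps2 alone gave -0.196 points there, while Rplp0 gave 0.211 points the other way. The ratio without Rps12, Rps2, Rpl39 and Rpl7a is given below. The GFP contrasts use the same libraries, and the ratio between them equals that between the EpCAM contrasts by arithmetic. They are thus no separate observation. The share was 1.26 times as large in GFP+ EpCAM- as in GFP- EpCAM-, and 0.726 times as large in GFP+ EpCAM+ as in GFP- EpCAM+. Relative to the other members, Rpl39 stood at 0.382 times its level in GFP+ EpCAM- against GFP- EpCAM- and at 4.85 times in GFP+ EpCAM+ against GFP- EpCAM+. Rpl7a stood at 0.836 and 5.03 times in the same 2 contrasts. Each was singled out because a contrast went one way in one sort and the opposite way in the other. With 1 library per sort the difference between the contrasts was not tested, and the contrasts share libraries.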

How the results depend on the processing

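No paired analysis was possible because each group is 1 library. For the same reason no library could be left out within a group. With Fau, the paralogs and the pseudogene names added, a set chosen after seeing the data, the shares became 10.8% in pCAF, 15.5% in sCAF, 8.54% in NMF, 10.4% in GFP+ EpCAM+, 10.8% in GFP+ EpCAM-, 14.3% in GFP- EpCAM+ and 8.61% in GFP- EpCAM-. Without the 5 largest members they were 8.89%, 12.7%, 6.98%, 7.82%, 8.40%, 11.2% and 6.84% in the same order. The ratios then were 0.932 for GFP+ EpCAM+ to GFP+ EpCAM-, 1.64 for GFP- EpCAM+ to GFP- EpCAM-, 1.23 for GFP+ EpCAM- to GFP- EpCAM- and 0.699 for GFP+ EpCAM+ to GFP- EpCAM+. Without Rps12, Rps2, Rpl39 and Rpl7a, an alternative chosen after seeing the data, the shares were 9.80%, 14.2%, 7.83%, 10.1%, 10.2%, 13.3% and 7.94%. The ratios then were 1.25 for pCAF to NMF, 0.688 for pCAF to sCAF, 0.987 for GFP+ EpCAM+ to GFP+ EpCAM-, 1.29 for GFP+ EpCAM- to GFP- EpCAM- and 0.760 for GFP+ EpCAM+ to GFP- EpCAM+. No ratio of shares crossed 1 under these 3 sets.

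Scaling by total counts gave 6 members lower in pCAF versus NMF and 2 higher in GFP+ EpCAM- versus GFP- EpCAM-. It put the median log2 ratio at 0.24 in pCAF versus NMF, -0.64 in pCAF versus sCAF, 0.35 in GFP+ EpCAM- versus GFP- EpCAM- and -0.41 in GFP+ EpCAM+ versus GFP- EpCAM+. DESeq2 size factors gave a median of -0.33 in pCAF versus sCAF. A minimum of 100 counts left 1 member lower in sCAF versus NMF. Against the median ratio of the members, 2 were uneven and higher in GFP- EpCAM+ versus GFP- EpCAM-, and Rpl19 (0.441), Rpl27a (0.461), Rpl24 (0.451), Rpl18 (0.485) and Rps29 (0.483) no longer passed the 2-fold rule in 1 comparison each.

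With a 1.5-fold rule the members higher and lower on TMM levels were 28 and 7 in pCAF versus NMF, 5 and 26 in pCAF versus sCAF, 2 and 5 in GFP+ EpCAM+ versus GFP+ EpCAM-, 31 and 5 in GFP- EpCAM+ versus GFP- EpCAM-, and 9 and 4 in GFP+ EpCAM- versus GFP- EpCAM-. In sCAF versus NMF 43 were higher, and in GFP+ EpCAM+ versus GFP- EpCAM+ 24 were lower. Relative to the other members the same rule gave 8 and 17 in pCAF versus NMF, 9 and 13 in sCAF versus NMF, 10 and 14 in pCAF versus sCAF, 2 and 5 in GFP+ EpCAM+ versus GFP+ EpCAM-, 8 and 14 in GFP- EpCAM+ versus GFP- EpCAM-, and 4 and 9 in GFP+ EpCAM- versus GFP- EpCAM-, with 4 lower in GFP+ EpCAM+ versus GFP- EpCAM+. In all, 125 results under an alternative kept their value within the limits set and 64 moved. Among these, only ratios of shares and median log2 ratios could be counted as reversed, and 0 were. Of the values of single members 89 kept their call and 5 were weaker. A call beyond 2-fold also lies beyond 1.5-fold, so under the 1.5-fold rule these calls could not be lost. The pCAF library is the shallowest, and members under 20 counts over both libraries of a comparison were not tested.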
